A study of Rattus norvegicus with 9 samples.

Results

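The Polo-like kinases Plk1, Plk2, Plk3 and Plk4 were followed in RBL-2H3 cells that had met antigen through IgE. These 4 genes were matched by symbol among the 18006 genes with values. The family was chosen with measured values of these samples in view: Plk3 was selected on its rise from the Ctrl to the DNP samples and on the close agreement of its replicates, so its values are given as a description with no test, also against PF, where the same Ctrl or DNP samples enter. RBL-2H3, a cloned line from a rat basophilic leukemia, often stands in for mast cells (MCs).

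RNA was sequenced in 9 samples, 3 in each of 3 groups. The samples labelled IgE/DNP (called DNP here) were sensitized for 12 h with anti-DNP IgE at 50 ng/ml and then received the antigen DNP-HSA at 100 ng/ml, for 4 h by their labels. The samples labelled PF had the same sensitization and antigen, with PF added for 1 h before the antigen. PF is not identified in the sources used here, and its dose is not given. One label field gives all PF samples 4 h of antigen, while another gives 4, 5 and 6 h to replicates 1, 2 and 3. The samples labelled Ctrl are called untreated in one field, while the protocol field shared by all samples describes sensitization and antigen, so whether Ctrl cells carried IgE could not be settled. Nothing in the labels says that replicates were separate cultures, so p-values measure the spread between these samples, which may be technical.

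Polo-like kinases are serine/threonine kinases that carry a kinase domain and, at the other end, polo boxes that dock them on partner proteins. Plk1 drives entry into mitosis, centrosome maturation, chromosome segregation and cytokinesis, and its mRNA is highest in cells about to divide. Plk4 starts the duplication of centrioles. Plk2 and Plk3 were first described as genes that serum and growth factors induce within a short time, and both have been tied to stress signalling. In MCs, antigen that bridges IgE on its receptor FcεRI sets off kinase cascades and a rapid wave of transcription factor genes of the Egr, Fos and Jun families.

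The 250 bases upstream of the annotated start of each kinase are shown because cAMP response elements (CREs) and their shorter half-sites, bound by the CREB and ATF factors, lay in 3 of the 4. The sequences are from RefSeq on the build GRCr8, and all 4 genes matched by gene identifier. Each runs 5′ to 3′ on the gene's own strand and ends at the base before the start. Capitals mark a CRE (TGACGTCA) in Plk2 and Plk4, CRE half-sites (TGACG) in Plk3 and a CCAAT box (CCAAT) in Plk1.
Plk1, chr1:186147408-186147657 (+): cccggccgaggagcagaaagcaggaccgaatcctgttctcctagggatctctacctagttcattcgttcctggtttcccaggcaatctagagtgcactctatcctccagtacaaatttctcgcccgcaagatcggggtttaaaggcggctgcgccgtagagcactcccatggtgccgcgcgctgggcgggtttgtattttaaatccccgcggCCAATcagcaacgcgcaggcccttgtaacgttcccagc
Plk2, chr2:43702286-43702535 (+): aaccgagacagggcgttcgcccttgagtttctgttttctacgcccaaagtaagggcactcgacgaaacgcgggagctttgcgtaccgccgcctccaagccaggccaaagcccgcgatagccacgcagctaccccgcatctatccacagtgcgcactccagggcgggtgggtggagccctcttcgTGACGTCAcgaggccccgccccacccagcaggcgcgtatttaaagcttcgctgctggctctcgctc
Plk3, chr5:135848901-135849150 (-): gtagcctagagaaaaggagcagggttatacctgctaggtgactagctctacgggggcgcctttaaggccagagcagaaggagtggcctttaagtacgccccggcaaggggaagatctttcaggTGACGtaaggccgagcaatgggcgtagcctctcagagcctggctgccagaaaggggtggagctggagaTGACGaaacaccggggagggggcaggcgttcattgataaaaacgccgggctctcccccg
Plk4, chr2:125730230-125730479 (+): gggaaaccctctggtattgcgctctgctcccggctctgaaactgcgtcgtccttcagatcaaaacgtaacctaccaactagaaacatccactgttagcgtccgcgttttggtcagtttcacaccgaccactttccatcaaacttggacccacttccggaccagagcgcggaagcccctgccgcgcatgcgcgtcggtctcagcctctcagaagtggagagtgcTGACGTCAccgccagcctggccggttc
The full CRE stood 59 to 66 bases before the start of Plk2 and 20 to 27 bases before the start of Plk4. It was present in 1.59% of the 33469 rat promoter windows of this length. The window of Plk3 held the half-site at 123 to 127 and at 55 to 59 bases before the start, without a full CRE, and 18.2% of all windows held at least 1 half-site on either strand. A full CRE holds a half-site on each strand, so the half-sites of Plk2 and Plk4 overlap their CRE. The CCAAT box of Plk1, a motif bound by NF-Y, lay 34 to 38 bases before the start and was found in 34.0% of windows. None of the 4 windows held, on either strand, the AP-1 site TGANTCA (6.34% of windows), the EGR site GCGTGGGCG (0.478%), the cell cycle homology region TTTGAA (16.2%), the TATA box TATAAA (12.9%) or a CArG box (1.5%). These motifs were chosen after the expression values were seen, and a match describes letters, not binding.

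Expression was read as FPKM, fragments of a gene scaled for its length and the number mapped, which allows levels of different genes to be compared per length. FPKM holds no read counts, so the depth in reads is unknown. The values summed to 573023 to 591539 FPKM in the Ctrl and DNP samples and to 610206 to 630069 in the PF samples, and relative depth, read off the step size of low values in 11 genes, ranged from 0.983 to 1.02. Of 8 MC markers, 7 had values and all 7 averaged at least 1 FPKM in every group (Tpsab1 had none), with a summed level of 2429 to 2590 FPKM. Summed B cell, macrophage, fibroblast and epithelial markers reached at most 1.15 FPKM. The T cell sum was 6.92 to 10.2 FPKM, nearly all of it Cd3e, and the endothelial sum (Pecam1 and Tek) was 62.6 to 69.5 FPKM in Ctrl and DNP samples and 49.9 to 55.1 in PF samples. The part of these markers in the results was not tested.

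Plk3 was the member that differed most between Ctrl and DNP samples. In the Ctrl samples Plk3 stood at 17.2, 17.7 and 17.3 FPKM. In the DNP samples it stood at 43.1, 43.4 and 43.7 FPKM. In the PF samples it stood at 25.8, 26.4 and 26.4 FPKM. Each group thus formed a tight cluster, with DNP highest, PF between and Ctrl lowest, and no sample of one group reached another. The group means were 17.4 ± 0.294, 43.4 ± 0.337 and 26.2 ± 0.349 FPKM (SD, n = 3) in Ctrl, DNP and PF. The DNP mean was 2.49 times the Ctrl mean, a log2 fold change of 1.27, the 23rd highest of the 10392 genes compared. Log2 fold changes throughout are differences of mean log2(FPKM + 1), first group minus second. Plk3 was selected on that rise.

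The replicates of Plk3 lay closer together than those of most genes of like level, a property that was also used to select it. Its coefficient of variation was 1.69% in Ctrl, 0.776% in DNP and 1.33% in PF samples. Genes whose mean was within 1.5-fold of Plk3 had a median of 5.0%, 3.04% and 4.33% in the same groups. Of those genes, 8.41%, 5.47% and 6.90% had replicates closer together still.

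Plk3 was lower in the PF than in the DNP samples, and remained above the Ctrl samples. Against DNP, the PF mean was 0.604 times as high, with a log2 fold change of -0.71. Against Ctrl, the PF mean was 1.51 times as high, with a log2 fold change of 0.56. No p is given for either, as both use the high DNP or low Ctrl values on which Plk3 was selected. In FPKM, PF lay 8.82 above Ctrl where DNP lay 26.0 above it, which is 33.9% of that distance.

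**Figure D1:**
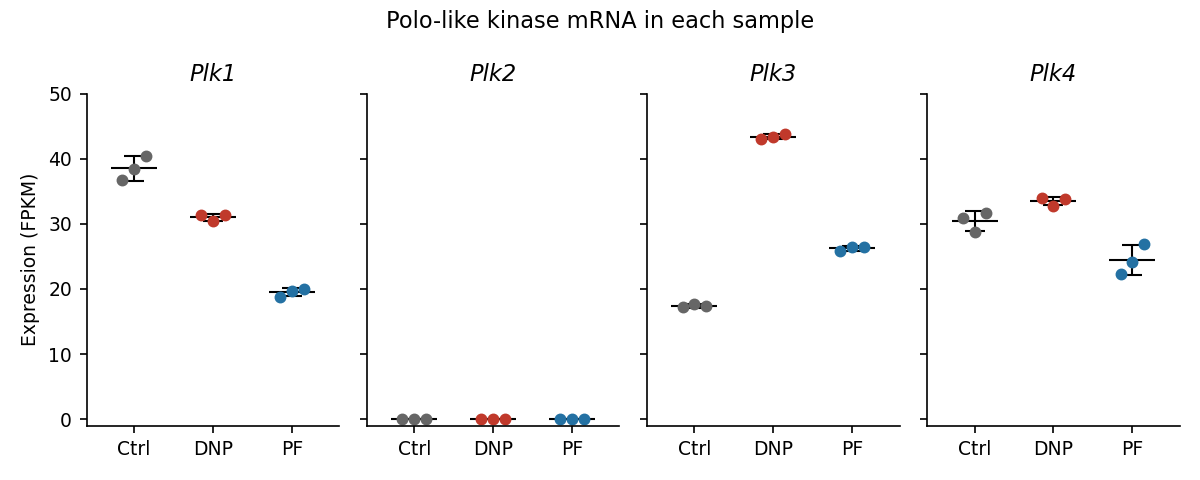
FPKM of Plk1, Plk2, Plk3 and Plk4 in each of the 9 samples (points) by group, with the mean (long line) and SD (short lines, n = 3). Plk3 was highest in DNP at 43.1 to 43.7 FPKM, Plk1 stepped down from Ctrl to DNP to PF, Plk4 was lowest in PF, and Plk2 lay at the bottom of the axis in all samples.

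Plk1, the mitotic kinase, was lower in DNP than in Ctrl samples and lowest in PF samples. It was expressed at 36.7, 38.4 and 40.5 FPKM in the Ctrl samples. The DNP samples had 31.3, 30.4 and 31.3 FPKM. The PF samples had 18.8, 19.6 and 20.0 FPKM. The lowest Ctrl sample was above the highest DNP sample by 5.31 FPKM. The lowest DNP sample was above the highest PF sample by 10.4 FPKM, so the groups formed 3 separate steps. How many of all genes separate in this way was not counted. Means were 38.5 ± 1.92, 31.0 ± 0.563 and 19.5 ± 0.621 FPKM (SD, n = 3).

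From Ctrl to DNP the mean of Plk1 fell by 19.5%, with a log2 fold change of -0.30 (SE 0.0448, adjusted p = 0.00209 in limma). In this comparison 29.2% of the 10392 genes tested passed the same threshold of an adjusted p of 0.05, and 14.4% passed it as lower in DNP and 14.7% as higher. Of the 2 members that were open to this test, Plk1 passed it and Plk4 did not. From DNP to PF the mean of Plk1 fell by 37.2%, a log2 fold change of -0.64 (SE 0.0420, adjusted p = 4.99e-06 in limma). From Ctrl to PF it fell by 49.4%, a log2 fold change of -0.95 (SE 0.0508, adjusted p = 2.57e-06 in limma), the 345th lowest of 10361 genes. As a bulk measure, a lower FPKM of Plk1 in all cells cannot be told apart from fewer cells in the phase that expresses it.

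Plk4, the centriole kinase, had the smallest differences. The Ctrl samples stood at 31.0, 28.7 and 31.7 FPKM. The DNP samples stood at 34.0, 32.8 and 33.8 FPKM. The PF samples stood at 22.3, 24.1 and 26.9 FPKM. All DNP samples were above all Ctrl samples, by a gap of 1.10 FPKM, and all PF samples were below both groups. Means were 30.4 ± 1.55, 33.5 ± 0.632 and 24.4 ± 2.32 FPKM (SD, n = 3).

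The difference between DNP and Ctrl in Plk4 was a log2 fold change of 0.13 with an interval of 0.03 to 0.24 (95% confidence, unadjusted) and did not pass the threshold (adjusted p = 0.0582 in limma). This call was close to the threshold: without Ctrl replicate 3 the log2 fold change was 0.16 with an adjusted p of 0.0426 in limma, and over all alternatives the adjusted p ranged from 0.0426 to 0.151. From DNP to PF, Plk4 fell by 27.0%, a log2 fold change of -0.44 (SE 0.0628, adjusted p = 0.000487 in limma). From Ctrl to PF it fell by 19.7%, a log2 fold change of -0.31 (SE 0.0707, adjusted p = 0.00555 in limma).

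The PF replicates of Plk4 were spread more widely than those of the other members. Their coefficient of variation was 9.47%, and 92.6% of the genes within 1.5-fold of the mean had closer replicates. The 3 values, 22.3, 24.1 and 26.9 FPKM, belong to replicates to which one label field gives 4, 5 and 6 h of antigen, with 1 sample each, and the part of that difference in the labels was not tested. In replicate 1, which has 4 h in both fields, Plk4 was the lowest of the 3. The order was not particular to Plk4. PF replicates 1 to 3 ran the same way in Plk1 (18.79, 19.64 and 20.0 FPKM) and Plk3 (25.82, 26.42 and 26.43 FPKM). With replicate 1 as the lone PF sample, the log2 fold change of Plk4 was -0.57 against DNP and -0.43 against Ctrl. No test result is given for these, as 1 sample shows no spread of its own.

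Plk2, the serum-inducible relative of Plk3, was close to absent from these cells. It was listed at 0.02 FPKM in Ctrl replicate 2 and in PF replicate 2, and at 0 in the other 7 samples. Genes entered a test when 3 or more of the 6 compared samples reached 1 FPKM, which Plk2 did in no comparison, so no fold change was computed. Plk5, the remaining relative, was listed at 0.03 FPKM in DNP replicate 3 and at 0 in the other 8 samples. The full CRE upstream of Plk2 thus stood before a gene with almost no listed mRNA, whereas Plk4, with the same element, was at 22.3 FPKM or more in every sample.

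Both members open to a test, Plk1 and Plk4, passed it as lower in PF than in DNP samples. Of all 10329 genes tested in that comparison, 48.8% were called, 30.7% as lower in PF and 18.1% as higher. Between PF and Ctrl both passed as well, again as lower. In that comparison 57.7% of 10361 genes were called, 34.6% as lower in PF and 23.1% as higher. Scaling moved these shares: 37.1% of the genes called in PF vs DNP were higher in PF as deposited, 51.5% with median ratios and 16.8% with equal sums, and 40.0%, 51.1% and 26.7% in PF vs Ctrl, while Plk1 and Plk4 kept direction and call. With such shares called, a call alone does not set a member apart. Nor do sample ranges without overlap, as the share of all genes with such ranges was not counted. In PF vs Ctrl the middle 90% of genes had log2 fold changes of -0.83 to 0.46, with Plk1 below this range, Plk4 inside it and the selected gene Plk3 above it. In PF vs DNP the same range was -0.73 to 0.32, with all 3 members inside it. A two-sided exact permutation test on single genes gave p = 0.1 for Plk1 and Plk4 in every comparison, the smallest value that 3 samples against 3 allow. The 3 comparisons share samples in pairs, so their values for one gene are not independent of each other.

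**Figure D2:**
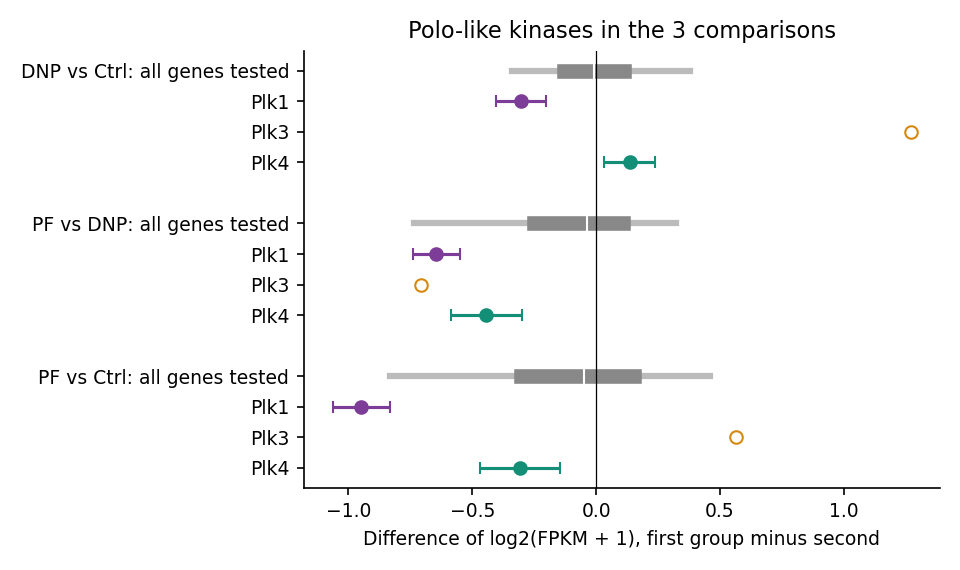
Log2 fold change, as the difference of mean log2(FPKM + 1), of Plk1, Plk3 and Plk4 in the 3 comparisons, with bars for the 95% confidence interval of Plk1 and Plk4. Open points are Plk3, which was selected on samples that enter each comparison and has no interval, and the grey bars show all genes tested (thin, 5th to 95th percentile, thick, 25th to 75th, with the median as a gap). Plk1 was at -0.95 in PF vs Ctrl, below the grey range, and Plk4 lay inside it in all 3 comparisons.

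The order of the family by level differed between the groups. In Ctrl samples it ran Plk1, Plk4, Plk3, Plk2, and no neighbours overlapped. In DNP samples it ran Plk3, Plk4, Plk1, Plk2, again with no overlap, although Plk4 and Plk1 were close (lowest Plk4 32.8 FPKM, highest Plk1 31.3 FPKM). In PF samples Plk3 and Plk4 overlapped, as the highest Plk4 sample (26.9 FPKM) exceeded every Plk3 sample, and both were above Plk1. Plk3 therefore moved from the lowest of the expressed members to the top of the order, and this placing also rests on the rise it was selected on.

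Ratios within a sample do not depend on how samples are scaled. Plk3 was 0.428 to 0.468 times as high as Plk1 in Ctrl samples, 1.37 to 1.43 times in DNP samples and 1.32 to 1.37 times in PF samples. The DNP and PF ranges of this ratio met at 1.37 without overlapping, although both genes were lower in PF than in DNP. The step of this ratio from Ctrl to DNP also rests on the rise Plk3 was selected on. The ratio of Plk1 to Plk4, which does not involve Plk3, was 1.18 to 1.34 in Ctrl, 0.923 to 0.928 in DNP and 0.743 to 0.843 in PF samples. These ranges did not overlap, and the ratio was lower in both antigen-treated groups than in Ctrl. How many pairs of genes have ratios that separate in this way was not counted.

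Summed over its members, family mRNA was 86.4 ± 2.69 FPKM in Ctrl, 108 ± 1.24 in DNP and 70.2 ± 3.21 in PF samples (SD, n = 3). Plk3 made up 20.2% of the sum in Ctrl, 40.2% in DNP and 37.4% in PF samples. Plk1 made up 44.6%, 28.7% and 27.8% in the same order. Plk4 made up 35.2%, 31.0% and 34.8%. In PF samples the shares of Plk3 and Plk1 thus lay nearer to those of DNP than of Ctrl samples. The share of Plk4 lay nearer to that of the Ctrl samples. The sum and all shares include Plk3, so they too rest on the rise it was selected on. The share of Plk4 was lower in DNP than in Ctrl samples, although its mean was 33.5 FPKM in DNP and 30.4 in Ctrl.

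**Figure D3:**
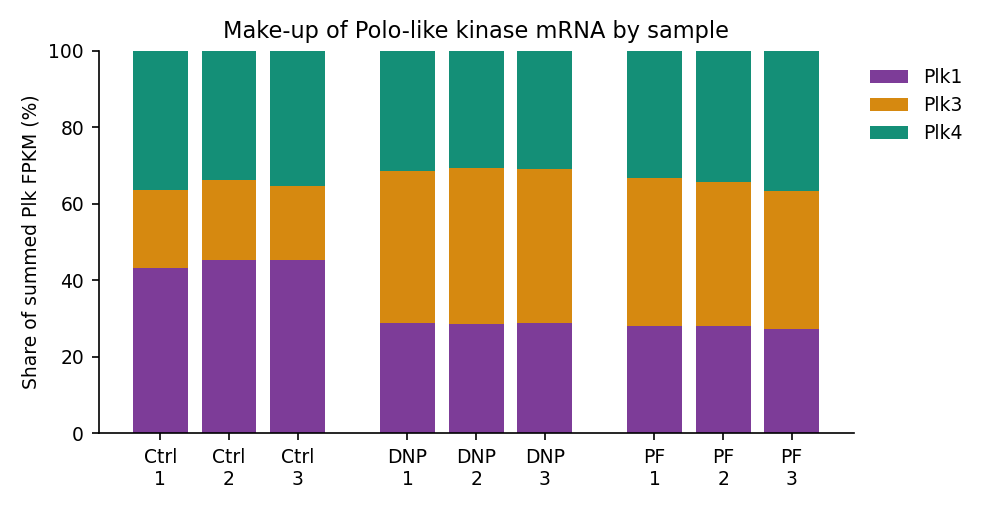
Share of the summed FPKM of Plk1, Plk3 and Plk4 in each sample, in percent, with the 3 replicates of each group side by side. Plk3 took 19.4% to 20.9% of the sum in Ctrl samples, 39.7% to 40.7% in DNP samples and 36.0% to 38.6% in PF samples, while the share of Plk1 was lower in both antigen-treated groups. Each share is of a sum that includes Plk3, which was selected on its rise in DNP.

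Across the 9 samples the members did not share a profile. Pearson's r of log2(FPKM + 1) was 0.78 between Plk1 and Plk4, 0.33 between Plk3 and Plk4 and -0.25 between Plk1 and Plk3. These values describe 9 samples that fall into 3 groups, so they mostly restate the group means, and no p is given.

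Among 10183 genes the nearest profile to Plk3 was that of Fam110a, a centrosome-associated protein, with r = 0.997. The next were Tent5a, a nucleotidyltransferase (0.991), Egr3, a zinc finger transcription factor (0.991), Hs3st1, a heparan sulfate sulfotransferase (0.990), and Dusp6, a phosphatase that switches off ERK (0.990). Their means moved as those of Plk3 did, which follows from picking them by r. Dusp6 stood at 18.2 ± 1.42, 46.1 ± 1.62 and 27.1 ± 1.63 FPKM in Ctrl, DNP and PF (SD, n = 3). Egr3 followed the same shape with larger steps, at 2.50 ± 0.408, 44.9 ± 2.85 and 7.19 ± 0.447 FPKM. In all, 44 genes reached r = 0.95 with Plk3.

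Plk1 had 793 genes at r = 0.95 or more, so its stepwise decline was a common shape in these samples. The nearest were Pttg1ip, which binds the securin Pttg1 (r = 0.997), the phosphatase Ctdsp2 (0.996), the nuclear receptor Ppard (0.996), the nucleotide-sugar receptor P2ry14 (0.994) and cyclin F, Ccnf (0.994). Ccnf, which marks proteins for destruction late in the cell cycle, had means of 4.00, 3.25 and 1.85 FPKM in Ctrl, DNP and PF. For Plk4, 76 genes reached r = 0.95, and the nearest were the nuclear lamina protein Tmpo (0.985), Rgs13, which dampens G protein signalling (0.982), the NF-κB adaptor Bcl10 (0.980), LOC681177 (0.980) and the hypoxia factor subunit Hif1a (0.980).

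**Figure D4:**
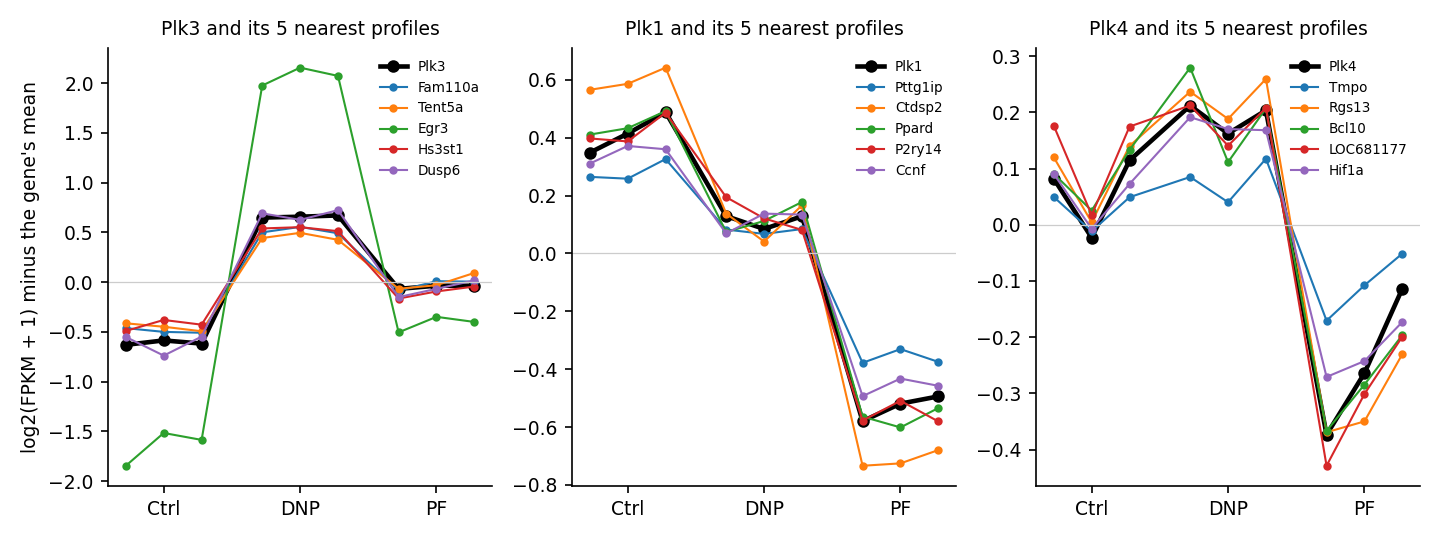
Profiles of Plk3, Plk1 and Plk4 (black) with the 5 genes nearest to each by Pearson's r over 9 samples, as log2(FPKM + 1) minus the gene's mean. Each point is 1 sample, lines only join the points of a gene, and the vertical scales differ between panels. The Plk3 panel peaks in DNP, the Plk1 panel steps down from Ctrl to PF, and the Plk4 panel is lowest in PF.

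Genes that work with Plk1 in mitosis were called about as often as genes at large. Over all genes tested, 14.7% were higher and 14.4% lower in DNP vs Ctrl. The shares were 18.1% and 30.7% in PF vs DNP, and 23.1% and 34.6% in PF vs Ctrl. They also stand beside the higher and lower counts of the lists that follow. Of 35 genes of mitotic entry and exit, 4 were higher and 5 lower in DNP than in Ctrl, or 25.7% called beside 29.2% of all genes, with a median log2 fold change of 0.02 (-0.01 over all genes tested). Wee1, which holds back Cdk1, was higher (log2 fold change 0.39), as was Bora, the cofactor through which Aurora A activates Plk1 (0.25). Fbxo5, an inhibitor of the anaphase-promoting complex that Plk1 marks for destruction, was lower (-0.38), and so was the Plk1-docking kinesin Kif20a (-0.32). In PF vs DNP, 4 were higher and 15 lower (54.3% beside 48.8%) with a median of -0.10 (-0.04 over all genes), among them Wee1 (-0.79) and the cytokinesis factor Ect2 (-0.57) as lower and the securin Pttg1 (0.22) and the transcription factor Mybl2 (0.15) as higher. The split was 7 and 13 with median ratios and 1 and 22 with equal sums. In PF vs Ctrl, 5 were higher and 15 lower (57.1% beside 57.7%) with a median of -0.15 (-0.05 over all genes), or 10 and 13 with median ratios and 2 and 21 with equal sums. Fbxo5 (-0.76) and the phosphatase Cdc25c (-0.57), which activates Cdk1, were the lowest there, and Mybl2 (0.32) and Pttg1 (0.27) the highest. The larger step of Plk1 from Ctrl to PF (-0.95) lay below that of each of these 35 genes.

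The kinase upstream of Plk1 and its main partner at mitotic entry were looked at by name after their values were seen. No p is given for either. Aurka, the kinase that activates Plk1, had a mean of 44.4 FPKM in Ctrl, 36.7 in DNP and 29.9 in PF. It was lower in each step (log2 fold changes -0.27 and -0.29). Cdk1, the kinase of mitotic entry, stood at 48.6, 49.2 and 48.2 FPKM in the same groups. Its log2 fold changes were 0.02, -0.03 and -0.01 for DNP vs Ctrl, PF vs DNP and PF vs Ctrl. Aurka thus stepped down while Cdk1 stayed nearly level. The part of the share of dividing cells in the values of Plk1 was not tested.

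Of the 27 centriole genes tested around Plk4, 5 were higher and 2 lower in DNP than in Ctrl (25.9% called beside 29.2% of all genes, median 0.06). The ubiquitin ligase subunit Fbxw11, a relative of the one that removes Plk4, was higher (0.36), as was the centriole protein Poc1a (0.34), while Stil, which activates Plk4 (-0.17), and its partner Cep85 (-0.18) were lower. From DNP to PF, 1 rose, the centrin Cetn2 (0.31), and 11 fell (44.4% beside 48.8%, median -0.15), with Stil at -0.62 and Cep120, which builds the centriole wall, at -0.37. With median ratios 5 were higher and 8 lower, and with equal sums 1 and 14. In PF vs Ctrl, 5 were higher and 7 lower (44.4% beside 57.7%, median -0.08), or 6 and 6 with median ratios and 4 and 8 with equal sums. Stil, the scaffold that Plk4 phosphorylates to start a centriole, was the lowest at -0.79, followed by Cep85 at -0.52, with Plk4 itself at -0.31, while Cetn2 (0.47) and Poc1a (0.43) were the highest.

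Among 15 partners and substrates of Plk2 and Plk3 that were tested, 3 were higher and 1 lower in DNP than in Ctrl (26.7% called beside 29.2% of all genes, median 0.05). Jun, an AP-1 subunit that Plk3 can phosphorylate, was higher at 0.35 and the chromatin kinase Vrk1 at 0.23, and Cdc25c was the one lower gene (-0.20). PF samples had 1 higher and 7 lower genes than DNP samples (53.3% beside 48.8%, median -0.10), or 4 and 7 with median ratios and 1 and 10 with equal sums. The calcium-binding inhibitor of Plk3, Cib1, was the one higher gene as deposited (0.33), and the ubiquitin ligase subunit Fbxw7 (-0.54) and the growth inhibitor Tsc1 (-0.43) were the lowest. Against Ctrl, 4 were higher in PF and 7 lower (73.3% beside 57.7%, median -0.16), or 5 and 6 with median ratios and 1 and 7 with equal sums, with Jun (0.34) and Cdc25a (0.20) highest and Tsc1 (-0.58) and Cdc25c (-0.57) lowest.

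**Figure D5:**
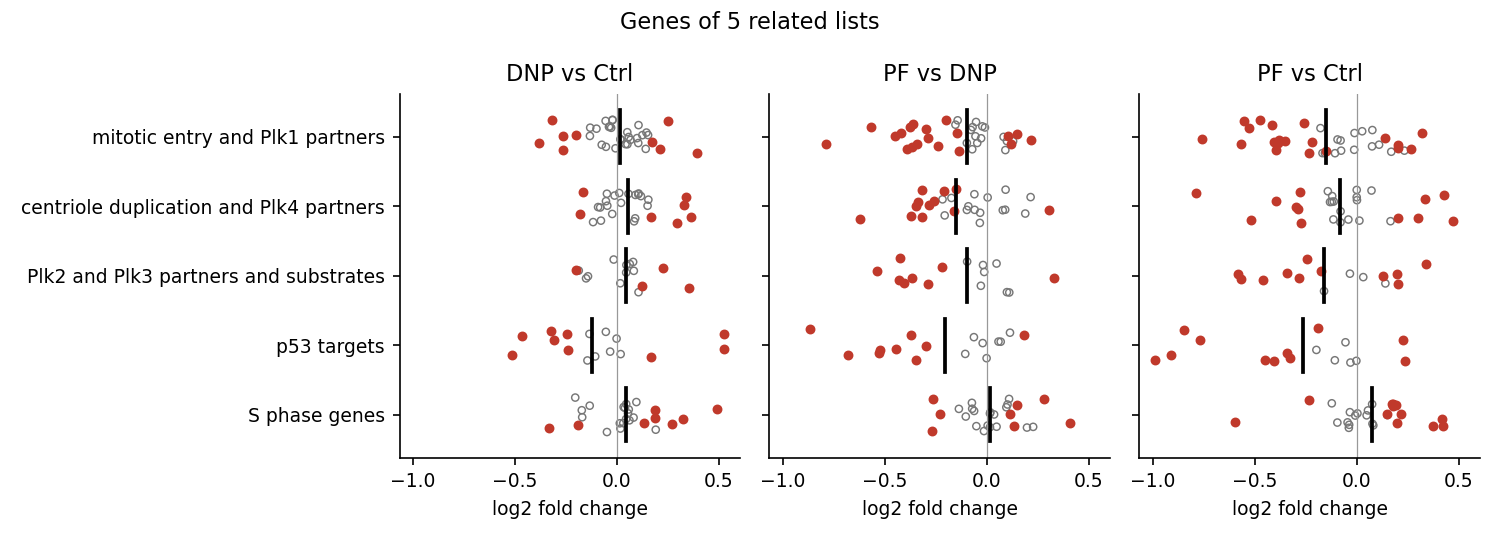
Log2 fold change of each tested gene of 5 lists related to the Polo-like kinases, in 3 panels for the 3 comparisons, with called genes (limma, adjusted p of at most 0.05) as filled red points, others as open points and the list median as a bar. In DNP vs Ctrl most points are open, and in both PF panels more of the red points of the first 4 lists lie below 0 than above it, with values as deposited.

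Plk3 has been described as a target of p53 and is counted with immediate early genes, so both groups were set beside it. The filter tied some immediate early genes to a direction. Egr2, Nr4a1 and Nr4a3 averaged under 1 FPKM in Ctrl and passed through the DNP samples in DNP vs Ctrl. In PF vs Ctrl, Egr2 and Nr4a1 passed through the PF samples, at means of 1.36 and 1.38 FPKM. Klf2 and Dusp5 averaged under 1 FPKM in Ctrl and DNP and passed through the PF samples. Against DNP, Nr4a3 averaged under 1 FPKM in PF. Such genes could hardly be called the other way, so the counts lean with the filter. Of 26 immediate early genes tested, 17 were higher and 2 lower in DNP than in Ctrl (median 0.56), where 14.7% of all genes were higher and 14.4% lower. Egr1 (5.20) and Fosb (4.50) had the highest log2 fold changes, beside 1.27 for Plk3, with Klf10 (-0.52) and the mRNA-destabilizing protein Zfp36 (-0.29) as the lower ones. Against DNP, 8 of 28 were higher in PF and 14 lower (median -0.29), where 18.1% of all genes were higher and 30.7% lower. With median ratios these were 10 and 14, and with equal sums 6 and 16. Egr3 (-2.49) and Maff (-1.73) were the lowest, beside -0.71 for Plk3, while Klf2 (2.202) and Fos (1.18) were the highest. In PF vs Ctrl, 19 of 27 were higher and 7 lower (median 0.50), where 23.1% of all genes were higher and 34.6% lower, with Egr1 (5.61) and Fosb (4.84) highest and the phosphatase Dusp2 (-0.997) and Klf10 (-0.85) lowest.

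Of 16 p53 targets tested, 3 were higher and 6 lower in DNP than in Ctrl (median -0.12), or 56.3% called beside 29.2% of all genes, with the DNA polymerase Polk and the p53 inhibitor Mdm2 highest (both 0.53) and the death gene Bbc3 (-0.51) and the stress gene Sesn2 (-0.47) lowest. From DNP to PF, 1 rose (Bbc3, 0.18) and 8 fell (56.3% beside 48.8%, median -0.20), among them Polk (-0.87) and Gadd45a (-0.68). With median ratios 4 were higher and 6 lower, and with equal sums 0 and 8. In PF vs Ctrl, 2 were higher, Ei24 (0.23) and Mdm2 (0.23), and 9 lower (68.8% beside 57.7%, median -0.26), with Gadd45a at -0.99 and Sesn2 at -0.91 against 0.56 for Plk3.

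S phase genes, which mark cells copying DNA, were set beside Plk1 and Plk4 as a gauge of another phase of the cycle. Of 26 tested, 6 were higher and 2 lower in DNP than in Ctrl (30.8% called beside 29.2% of all genes, median 0.05), led by Prim1 (0.49) and Lig1 (0.32), with Fen1 (-0.33) and Slbp (-0.19) lowest. In PF vs DNP, 5 were higher and 3 lower (30.8% beside 48.8%, median 0.02), with Slbp (0.41) and the cyclin Ccne1 (0.28) highest and Uhrf1 (-0.27) and Fen1 (-0.26) lowest. The direction depended on scaling, with 11 higher and 3 lower (median 0.08) with median ratios and 2 and 9 (median -0.08) with equal sums. In PF vs Ctrl, 10 were higher and 2 lower (46.2% beside 57.7%, median 0.08), with Lig1 (0.43) and Prim1 (0.42) highest and Fen1 (-0.60) and E2f1 (-0.24) lowest. This too turned with scaling, with 13 and 2 (median 0.14) with median ratios and 4 and 5 (median -0.002) with equal sums. Plk1 and Plk4 were lower in PF than in either other group under all of these scalings.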

How the data were processed

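RNA-seq values of 9 samples (3 Ctrl, 3 DNP, 3 PF) were grouped by the labels. RNA was taken with Trizol. The labels name Illumina library protocols and the methods a BGISEQ-500 sequencer. The authors filtered reads with SOAPnuke and, by the methods and the submitters' processing notes, used HISAT2 2.0.4, Bowtie2 2.2.5 and RSEM 1.2.12 with the build rn6, and the annotation is not given in the sources used here. The authors deposited 1 value per gene and sample, normalized for length and depth and read here as FPKM from their decimals and unequal sums, as the file header names no unit. Of 38490 gene rows, 20484 were blank in every sample, and samples were joined by gene identifier.

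Genes that reached 1 FPKM in 3 or more of the 6 compared samples were tested with limma 3.58.1 (lmFit, eBayes with trend, R 4.3.3) on log2(FPKM + 1), a scale that understates changes of low genes. Benjamini-Hochberg adjustment ran over all genes tested, with a threshold of 0.05. The test was checked on simulated data. Single genes had a two-sided exact permutation test. The precision rests on 3 replicates, as counting error is unknown without reads.

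The family, the gene lists and the motifs were chosen with earlier results of these data known. Named from each list and comparison are the 2 highest and 2 lowest called genes, and beside each expressed kinase the 5 genes with the highest r. Aurka, Cdk1 and the immediate early genes tied to a direction by the filter are named outside this rule. Alternatives were another pseudocount (0.1), no filter, all groups in the fit, a replicate block, other scalings, no trend, a threshold of 0.01, each sample left out and PF replicate 1 alone.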

Additional observations from a re-analysis of the deposited data

How the results depend on the processing

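Across 6 values (Plk1 and Plk4 in 3 comparisons) and 82 alternatives, direction and side of the threshold held in 80, and Plk3, with no test, kept its direction in all 41. Both exceptions were Plk4 in DNP vs Ctrl: scaled to the mean of the sums it was 0.15 with an adjusted p of 0.0470 in limma, and with each replicate left out in turn it ranged from 0.0943 to 0.163, past the threshold only without Ctrl replicate 3. The cause was not tested. The 82 alternatives include fits with PF replicate 1 alone, in which the spread came only from the other group. With a threshold of 0.01, 1469 genes were called in DNP vs Ctrl in place of 3031. Over 14 alternatives in PF vs DNP, Plk1 ranged from -0.74 to -0.58, Plk3 from -0.80 to -0.64 and Plk4 from -0.57 to -0.38. Over all genes the PF vs DNP median was -0.04 unscaled, 0.02 with median ratios and -0.13 with equal sums, and in PF vs Ctrl -0.05, 0.01 and -0.12. With median ratios 14 S phase genes were called in PF vs DNP in place of 8.

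Replicate numbers are shared between groups with no stated meaning. Deviations of same-numbered samples correlated at -0.07 to 0.05 in DNP vs Ctrl, -0.08 to 0.00 in PF vs DNP and 0.08 to 0.19 in PF vs Ctrl, so the numbers were not taken to pair the samples. With a replicate block 2697, 4675 and 6009 genes were called in place of 3031, 5042 and 5975, and no call of Plk1 or Plk4 changed.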
